A study of Mus musculus with 8 samples.

Results

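The germline and meiosis genes are 34 genes that act in germ cells, selected by gene symbol out of the 27179 genes counted in these libraries. They comprise 14 genes of the piRNA pathway and germ granule, 8 genes of the meiotic chromosome axis, synapsis and recombination, 7 genes of germ cell RNA regulation and spermatogenesis, and 5 oocyte factors including *Dppa3*. RNA-seq was performed on whole uteri at postnatal day 10 (PD10) from 4 control mice (Ezh2 f/f, Ctrl) and 4 *Ezh2 Amhr2*-Cre cKO mice (Ezh2 f/f; Acre, cKO). Both genotypes carried the floxed *Ezh2* allele, and only the cKO carried the Cre. *Amhr2*-Cre acts in mesenchymal derivatives of the Mullerian tract, so that uterine epithelium retains EZH2, and the counts of a whole uterus average recombined and unrecombined cells. The question asked here was whether they were expressed ectopically when *Ezh2* was deleted in the uterine mesenchyme.

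EZH2 is the methyltransferase of Polycomb repressive complex 2 (PRC2), which places the repressive mark H3K27me3. In somatic cells, germline genes are held silent by promoter DNA methylation and by a variant Polycomb complex, PRC1.6, whose subunits E2F6 and MGA-MAX bind E2F sites and E-boxes, together with H3K9 methylation and, at some promoters, PRC2. The proteins of these genes serve tasks that a uterus does not need. PIWI proteins and tudor-domain proteins silence transposons with piRNAs in germ cells, meiotic cohesin holds sister chromatids together, the synaptonemal complex joins homologous chromosomes, and oocyte transcription factors build the primordial follicle.

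The promoters are shown first, because their letters are those that PRC1.6 is known to read. RefSeq windows of GRCm38.p6 from 250 bases before to 50 bases after the transcription start were found for 29 of the 34 genes, and the first start listed was used. The E-box was searched as CACGTG, which reads the same on both strands, and the E2F core as GCGGGA on either strand, so that it can appear as TCCCGC. The motifs overlapped in no window of these genes. Printed below, 5′ to 3′ on the strand of the gene with motif letters in capitals, are 2 promoters of genes that were at or near 0 counts in the uterus (*Mael* and *Hormad1*) and 3 promoters of genes that were measurable (*Sycp3*, *Sycp1* and *Smc1b*). They run to 10 bases after the start, from 250 bases before it, or from 110 bases before it for *Smc1b*. Each printed promoter holds a motif, whereas 10 of the 29 windows hold neither.
Mael (chr1:166238735-166238994, minus strand): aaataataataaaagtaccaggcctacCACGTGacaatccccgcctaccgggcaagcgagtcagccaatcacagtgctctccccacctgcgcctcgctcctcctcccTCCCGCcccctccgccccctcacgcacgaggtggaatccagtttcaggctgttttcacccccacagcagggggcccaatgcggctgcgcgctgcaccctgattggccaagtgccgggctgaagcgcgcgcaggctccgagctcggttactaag
Hormad1 (chr3:95559427-95559686, plus strand): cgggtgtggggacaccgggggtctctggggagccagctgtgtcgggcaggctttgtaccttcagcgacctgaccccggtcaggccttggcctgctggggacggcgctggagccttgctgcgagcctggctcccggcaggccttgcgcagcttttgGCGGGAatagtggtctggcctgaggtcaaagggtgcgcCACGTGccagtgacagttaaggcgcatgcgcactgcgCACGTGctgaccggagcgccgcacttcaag
Sycp3 (chr10:88459337-88459596, plus strand): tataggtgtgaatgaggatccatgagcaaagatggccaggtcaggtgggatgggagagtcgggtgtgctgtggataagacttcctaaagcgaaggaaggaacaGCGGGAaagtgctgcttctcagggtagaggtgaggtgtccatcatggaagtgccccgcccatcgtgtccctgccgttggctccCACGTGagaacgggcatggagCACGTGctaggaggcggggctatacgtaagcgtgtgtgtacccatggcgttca
Sycp1 (chr3:102936091-102936350, minus strand): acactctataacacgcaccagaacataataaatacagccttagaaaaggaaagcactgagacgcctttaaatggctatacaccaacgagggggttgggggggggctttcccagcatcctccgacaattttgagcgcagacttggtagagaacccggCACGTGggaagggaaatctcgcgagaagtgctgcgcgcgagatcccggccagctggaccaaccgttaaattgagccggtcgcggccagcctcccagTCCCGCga
Smc1b (chr15:85131948-85132067, minus strand): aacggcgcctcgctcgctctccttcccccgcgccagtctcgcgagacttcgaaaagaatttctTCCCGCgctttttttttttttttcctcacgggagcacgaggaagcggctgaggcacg

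An E-box was present in 16 of the 29 promoters (55.2%), against 7.24% of all 27025 promoter windows and 7.90% of the 17492 protein-coding ones. The E2F core was present in 10 of the 29 (34.5%), against 5410 of all 27025 windows and 25.7% of the protein-coding ones, and 7 held both motifs. Among windows rich in CpG (observed over expected of at least 0.6), the E-box was in 13 of 20 germline and meiosis promoters (65.0%) and in 11.5% of protein-coding promoters, whereas the E2F core was in 10 of 20 and in 43.6%. The E-box was in 8 of 11 promoters of the piRNA group, 4 of 7 of the meiotic chromosome group, 3 of 7 of the RNA regulation group and 1 of 4 of the oocyte group. The first bases of the 23 E-boxes lay between positions -246 and -11 from the start, with a median of -94. The E-box was found in 6 of 10 promoters of genes measurable in the uterus and in 10 of 19 promoters of genes under the detection filter described below. The shares are a description of the sequences and no site was assayed.

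**Figure D1:**
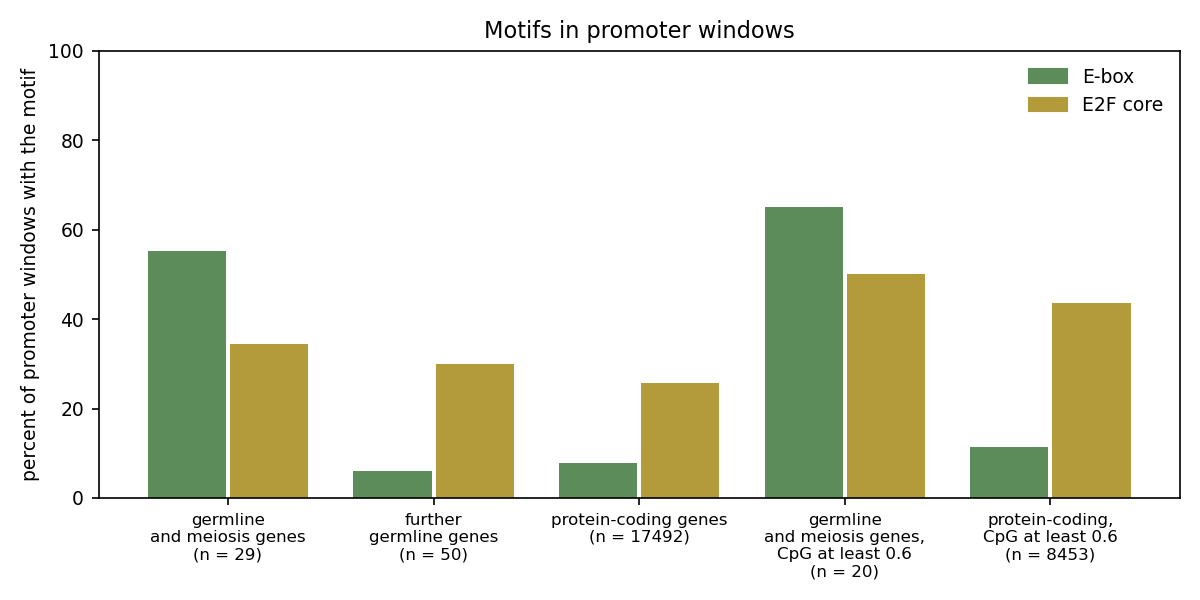
Percent of promoter windows (250 bases before to 50 after the start) that hold the E-box or the E2F core, for the 29 germline and meiosis genes with a window, 50 further germline genes, protein-coding genes, and the windows with a CpG observed over expected of at least 0.6. The E-box was in 55.2% of the germline and meiosis promoters and in 3 of the 50 further germline promoters.

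Each library held between 25287141 and 36685807 counts, at which 3 counts, the limit that a count of 0 allows, corresponded to 0.0818 to 0.119 CPM (counts scaled to library size). These limits cover counting error only. Expression is given as CPM scaled by edgeR's TMM method. *Ezh2*, the targeted gene, was at 49.5, 40.5, 54.7 and 35.4 CPM in Ctrl replicates 1 to 4 and at 30.4, 38.0, 40.7 and 38.0 CPM in cKO replicates 1 to 4, a log2 fold change of -0.29 (SE 0.13, edgeR adjusted p = 0.247) with overlapping libraries. Counts over the whole gene do not resolve the deleted exons. The paper reported that the floxed allele was recombined in cKO uteri and that *Ezh2* mRNA was lower there. It also reported weaker EZH2 staining of the stroma, and not of the epithelium. The labels do not say whether the mice came from separate litters, so p-values measure the spread between these samples. In whole tissue, fewer cells of a type and less RNA per cell cannot be told apart.

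The tissue carried uterine transcripts. Of the 8 uterine markers tested, 3 were called, beside 5.34% of all genes tested, and *Hoxa10*, *Hoxa11* and *Amhr2* were the ones lower in cKO (log2 fold changes of -0.62, -0.49 and -0.73, edgeR adjusted p = 0.000377, 0.00522 and 0.0148). The call of *Amhr2* was lost without Ctrl replicate 1 (adjusted p = 0.0605) or cKO replicate 1 (adjusted p = 0.0525). *Krt8* of epithelium, *Acta2* of smooth muscle and *Vim* of mesenchyme were at log2 fold changes of 0.18, 0.025 and 0.046 and were not called. The other cell types that could bring in germline RNA were checked in each library. Several ovarian markers were at or near 0, as *Fshr* of granulosa cells and *Kpna7* of oocytes had 0 counts in all 8 libraries, *Amh* had 1 to 5 counts, and the zona pellucida genes *Zp1*, *Zp2* and *Zp3* had 0 to 4. Others were measurable. *Inha*, the inhibin alpha subunit of granulosa cells, was at 5.05, 5.34, 4.50 and 3.95 CPM in Ctrl and at 8.70, 8.80, 6.56 and 4.52 CPM in cKO (log2 fold change 0.60, SE 0.20, edgeR adjusted p = 0.0994). cKO replicates 1, 2 and 3 were above every control and cKO replicate 4 lay within the Ctrl range. *Foxl2*, the other granulosa marker tested, went the other way, at 54.6, 55.2, 48.6 and 49.2 CPM in Ctrl and 39.4, 44.7, 52.6 and 41.7 CPM in cKO (log2 fold change -0.22, unadjusted p = 0.0281, edgeR adjusted p = 0.176). The oocyte genes *Ooep* and *Gdf9* had 2 to 39 and 24 to 57 counts over the 8 libraries. The 6 granulosa markers summed to 53.3 to 60.7 CPM in Ctrl and 46.5 to 59.3 CPM in cKO, mostly from *Foxl2*, which uterine stroma also expresses. Fat stood apart. The summed CPM of 10 fat markers was 3.79 to 5.11 in Ctrl but 82.9, 184 and 83.4 in cKO replicates 1, 2 and 3. It was 6.23 in cKO replicate 4, nearer to the controls but above each of them. Of the 7 fat markers tested, *Pparg* and *Adrb3* passed (log2 fold changes of 1.63 and 1.34, edgeR adjusted p = 0.0418 and 0.00204), and *Adipoq* and *Fabp4* had log2 fold changes of 6.07 and 5.56 with adjusted p = 0.0699 and 0.0615. The call of *Pparg* was lost with no filter, limma-voom and the replicate block (adjusted p = 0.0685, 0.0810 and 0.0812) and without any of Ctrl or cKO replicates 1, 2 and 3 (0.0738 to 0.119). *Myh3* and *Tnnt3* of skeletal muscle were higher (2 of 5 tested, log2 fold changes of 4.08 and 0.80), and *Ncr1* and *Klrk1* of lymphocytes were lower (2 of 6 tested, -2.29 and -2.20), whereas none of the 2 granulosa, 6 oviduct and 3 macrophage markers tested was called. *Acta1*, the skeletal muscle marker with the highest CPM, was at -0.13 and was not called. The 6 skeletal muscle markers summed to 44.9 to 76.2 CPM in Ctrl and 40.5 to 63.9 CPM in cKO. *Myh3* had 0, 1, 4 and 4 counts in Ctrl and 40, 57, 12 and 42 in cKO, and passed the filter of 0.2 CPM only through its cKO libraries. *Foxj1*, the regulator of multiciliated cells and the first oviduct marker, was at 1.23, 1.43, 1.89 and 1.70 CPM in Ctrl and at 0.660, 0.837, 1.14 and 0.981 CPM in cKO (log2 fold change -0.78, SE 0.23, adjusted p = 0.0766). Every cKO library was below every Ctrl library, as for 6.43% of all genes tested. The genotypes overlapped in the other 5 oviduct markers, and 3 of the 6 had a log2 fold change above 0 and 3 below, with a median of 0.018. The call of *Tnnt3* was lost without Ctrl replicate 1, 3 or 4 or cKO replicate 1 or 2 (adjusted p = 0.0604 to 0.0853). Mast cell markers summed to 36.2 to 45.9 CPM in Ctrl and 52.1 to 67.3 CPM in cKO, with 0 of 5 called. Among them the mast cell proteases *Cpa3* and *Mcpt4* had log2 fold changes of 1.07 and 1.33 (SE 0.47 and 0.39, adjusted p = 0.238 and 0.0812), and DESeq2 and limma-voom called *Mcpt4* (adjusted p = 0.00370 and 0.0465). *Kit*, the mast cell marker with the highest CPM, did not rise, with means of 29.3 CPM in Ctrl and 28.5 CPM in cKO (log2 fold change -0.039). Results that rest on these libraries are given with cKO replicate 4 set apart.

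None of the 34 germline and meiosis genes was higher in cKO uteri by the test, and 1, *Tex15*, was lower. Of the 34, 22 were under the detection filter of 0.2 CPM in at least 4 libraries, and 12 were tested. This is 1 call of 12, with 0 higher and 1 lower, where 5.34% of all 16658 genes tested were called (2.62% higher and 2.71% lower) and 1.3% were called with a change past 2-fold. None of the 12 passed the 2-fold threshold. An unadjusted p under 0.05 was given to 3 (*Tex15*, *Smc1b* and *Stag3*), and DESeq2 and limma-voom called only *Tex15*. The median log2 fold change of the 12 was 0.11, beside 0.00 over all genes tested. For 8 of the 12 the 95% interval of the fold change lay inside 2-fold in either direction, and it did not for *Tdrd9*, *Sycp1*, *Stag3* and *Smc1b*.

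**Figure D2:**
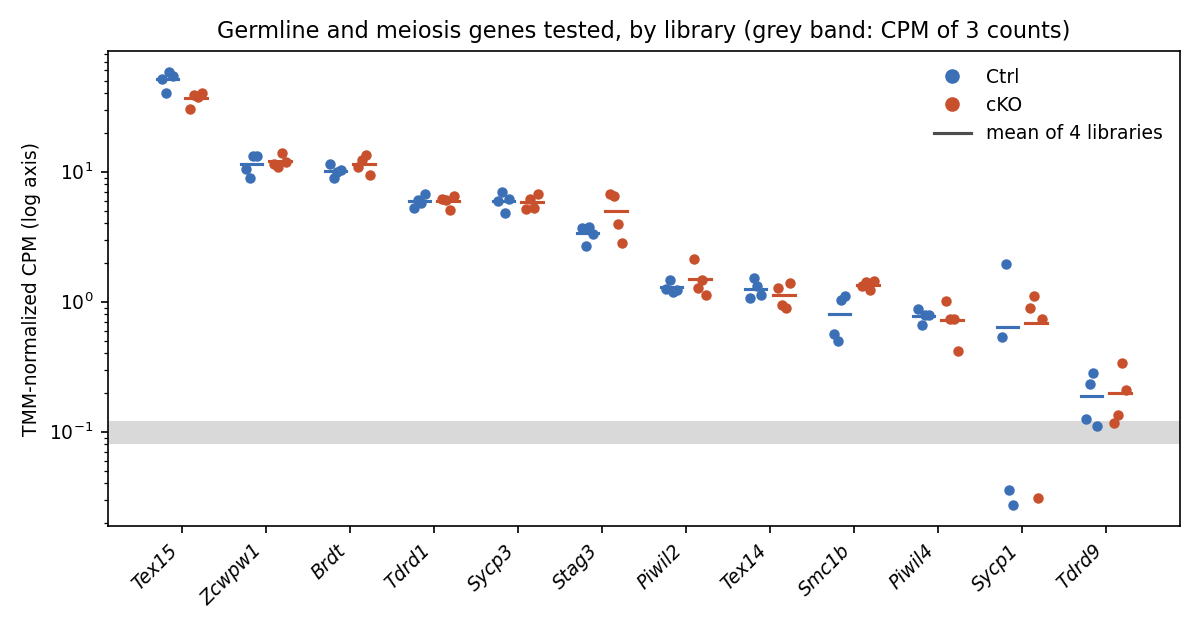
TMM-normalized CPM on a log axis of the 12 germline and meiosis genes tested, with a point for each of 4 Ctrl and 4 cKO libraries and a bar at their mean. The grey band marks the CPM of 3 counts (0.0818 to 0.119), *Tex15* has the highest CPM, not corrected for length, at 30.2 to 58.0, and *Sycp1* falls under the band in 3 libraries.

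The defining germ cell genes were at or near 0 counts in both genotypes. Of the 22 genes under the filter, *Figla* had 0 counts in all 8 libraries, 13 including *Figla* had at most 3 counts in every library, and 9 had more than 3 counts in at least 1. All 22 together had 124 counts over the 4 Ctrl libraries and 137 over the 4 cKO libraries. The mean CPM was higher in cKO for 11 and lower for 10, and no gene separated the genotypes. When every gene with a count was fitted, 0 of the 21 with counts were called by edgeR, 0 had an unadjusted p under 0.05, and the lowest adjusted p was 0.294. At this depth a count of 0 in a library allows levels up to the 0.0818 to 0.119 CPM of 3 counts.

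Among the germ granule genes, *Ddx4*, the Vasa helicase that marks germ cells, had 3, 2, 5 and 6 counts in Ctrl and 7, 5, 3 and 1 in cKO. *Tdrd6*, a tudor-domain protein of the chromatoid body, had 6, 7, 3 and 1 counts in Ctrl and 1, 7, 4 and 8 in cKO. *Piwil1*, the PIWI protein of pachytene spermatocytes, had 3, 3, 7 and 4 counts in Ctrl and 3, 6, 1 and 0 in cKO. The genotypes overlapped in all 3. The piRNA biogenesis genes *Mael*, *Asz1*, *Mov10l1*, *Gtsf1* and *Fkbp6* and the tudor-domain gene *Stk31* had between 0 and 3 counts in any library.

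In the meiotic chromosome group, *Sycp2*, a lateral element protein of the synaptonemal complex, had 9, 2, 3 and 5 counts in Ctrl and 3, 16, 6 and 9 in cKO. The 16 counts of cKO replicate 2 were the highest among the germline and meiosis genes under the filter. *Tex11*, a crossover factor encoded on the X chromosome, had 0, 0, 1 and 0 counts in Ctrl and 5, 0, 2 and 1 in cKO, and *Hormad1*, an axis protein whose promoter held 2 E-boxes and an E2F core, had 0 to 2 counts in every library. The genotypes overlapped in all 3.

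*Dazl*, the RNA-binding protein that licenses germ cells for gametogenesis, had 5, 2, 1 and 1 counts in Ctrl and 0, 4, 5 and 2 in cKO. *Slc25a31*, the testis ADP/ATP carrier, had 7 counts in Ctrl replicate 3 and 0 in the other 3 Ctrl libraries, beside 2, 4, 3 and 1 in cKO. *Tex101*, a sperm surface glycoprotein gene, *Taf7l*, a TFIID subunit of spermatogenic cells, and *Rpl10l*, a retrogene that resembles the ribosomal gene *Rpl10*, had 0 to 2 counts in each library. Among the oocyte factors, *Sohlh2* had 3, 0, 2 and 0 counts in Ctrl and 1, 2, 6 and 1 in cKO, and *Dppa3*, the maternal factor Stella, had 6 counts in Ctrl replicate 3 and 0 or 1 in each of the others. *Figla*, *Nobox* and *Sohlh1*, transcription factors of the primordial follicle, had 0 to 2 counts throughout. The genotypes overlapped in every gene of both groups.

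**Figure D3:**
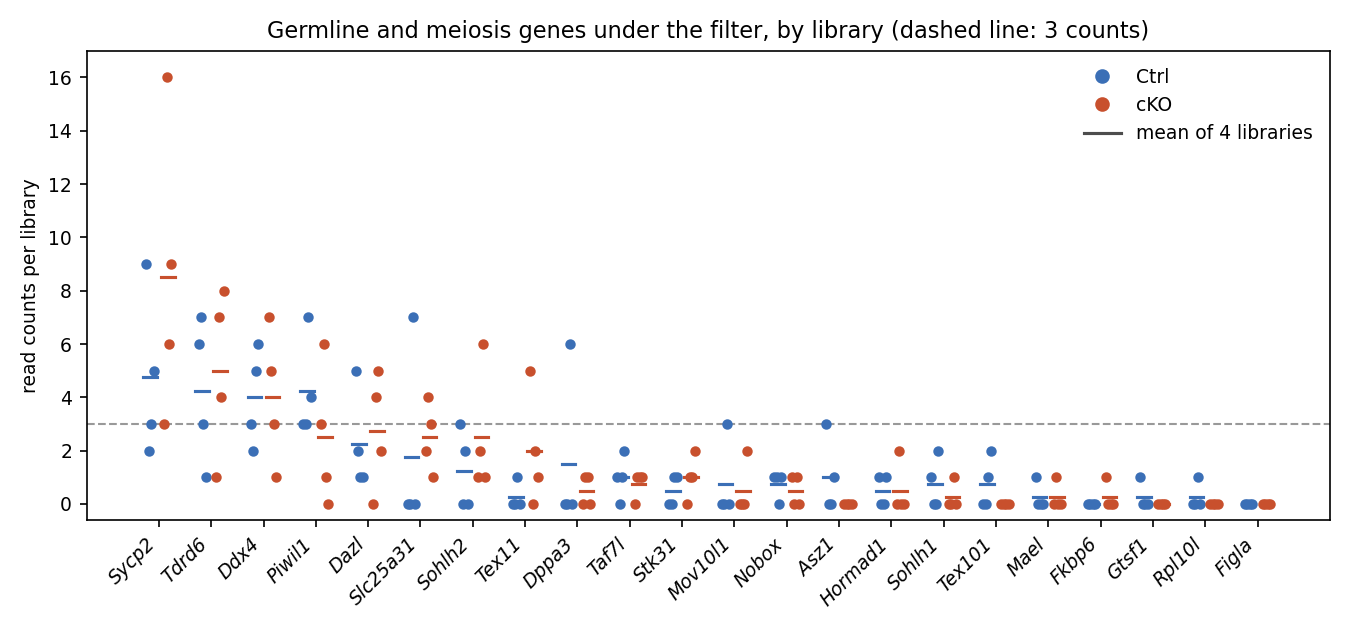
Read counts in each of 4 Ctrl and 4 cKO libraries of the 22 germline and meiosis genes under the filter, ordered by their total, with a bar at the mean and a dashed line at 3 counts. *Sycp2* reaches 16 counts in 1 cKO library and 13 genes stay at 3 counts or fewer.

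*Tex15*, which is required for PIWI-directed silencing of transposons in the male germline, had the highest CPM of the 34, not corrected for gene length, and fell in cKO uteri. It was at 51.7, 40.4, 58.0 and 54.7 CPM in Ctrl and at 30.2, 38.6, 37.6 and 40.1 CPM in cKO (means of 51.2 ± 7.64 and 36.6 ± 4.38 CPM, SD, n = 4). Every cKO library was below every Ctrl library, although Ctrl replicate 2 and cKO replicate 4 nearly touched. 6.43% of all genes tested had every cKO library below every Ctrl library. The log2 fold change was -0.48 (SE 0.11, edgeR adjusted p = 0.0320), a level of 0.715 of control. Leaving out any of the 6 libraries other than Ctrl replicate 2 and cKO replicate 4 ended the call, with log2 fold changes of -0.51 to -0.40 and adjusted p from 0.0752 to 0.101. cKO replicate 4 alone, the cKO library low in fat markers, gave -0.35 against the 4 controls. Scaling to library size without TMM made the libraries overlap.

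The other measurable piRNA genes did not pass the test. *Tdrd1*, a tudor-domain scaffold of the intermitochondrial cement, was at 5.24, 6.07, 5.74 and 6.78 CPM in Ctrl and at 6.14, 6.09, 5.08 and 6.51 CPM in cKO, with a log2 fold change of -0.0032 and a 95% interval from -0.28 to 0.27. The libraries of the genotypes overlapped and the interval lay well inside 2-fold. *Piwil2*, a PIWI protein of fetal germ cells and spermatogonia, was at 1.26, 1.47, 1.18 and 1.24 CPM in Ctrl and 2.14, 1.27, 1.48 and 1.12 CPM in cKO (log2 fold change 0.22, SE 0.23, adjusted p = 0.619), its high value being cKO replicate 1. *Piwil4*, the nuclear PIWI protein, was at 0.66 to 0.88 CPM in Ctrl and 0.42 to 1.01 CPM in cKO (log2 fold change -0.11, SE 0.28). *Tdrd9*, a tudor-domain helicase, had 4 to 8 counts in Ctrl and 3 to 11 in cKO, too few for a narrow interval (-0.91 to 1.23).

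In the meiotic chromosome group, the cohesin genes *Smc1b* and *Stag3* had the highest fold changes of the 12 genes tested, and neither passed the adjusted threshold. *Smc1b*, the meiosis-specific SMC subunit, was at 0.568, 0.503, 1.03 and 1.10 CPM in Ctrl and at 1.32, 1.41, 1.23 and 1.44 CPM in cKO. Every cKO library was above every Ctrl library, which held for 5.9% of all genes tested. These values are 18, 13, 29 and 40 counts in Ctrl and 34, 42, 40 and 41 counts in cKO. The log2 fold change was 0.73 (SE 0.27, 95% interval 0.15 to 1.32, unadjusted p = 0.0178, edgeR adjusted p = 0.139). The spread within Ctrl, where replicates 1 and 2 were lower than replicates 3 and 4, was wider than within cKO. In cKO replicate 4, with 6.23 CPM of fat markers, *Smc1b* was at its highest, 1.44 CPM. No alternative called it (adjusted p from 0.102 to 0.331 with the 4 or 3 libraries of each genotype).

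*Stag3*, the meiosis-specific STAG subunit of cohesin, was at 3.66, 2.67, 3.75 and 3.32 CPM in Ctrl and at 6.72, 6.53, 3.97 and 2.84 CPM in cKO. The 3 cKO libraries rich in fat markers were above every control, replicate 3 narrowly, and cKO replicate 4 lay among the controls. The log2 fold change was 0.58 (SE 0.25, 95% interval 0.03 to 1.12, unadjusted p = 0.041, edgeR adjusted p = 0.213). Without cKO replicate 4 the log2 fold change was 0.77 (adjusted p = 0.0302, with 0.150 to 0.459 over the other alternatives with at least 3 libraries of each genotype), and cKO replicate 4 alone gave -0.24. *Inha* was also above every control in cKO replicates 1, 2 and 3 and not in cKO replicate 4, whereas *Foxl2* was above every control in no cKO library. The part of fat or of ovarian RNA in the *Stag3* level was not tested.

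**Figure D4:**
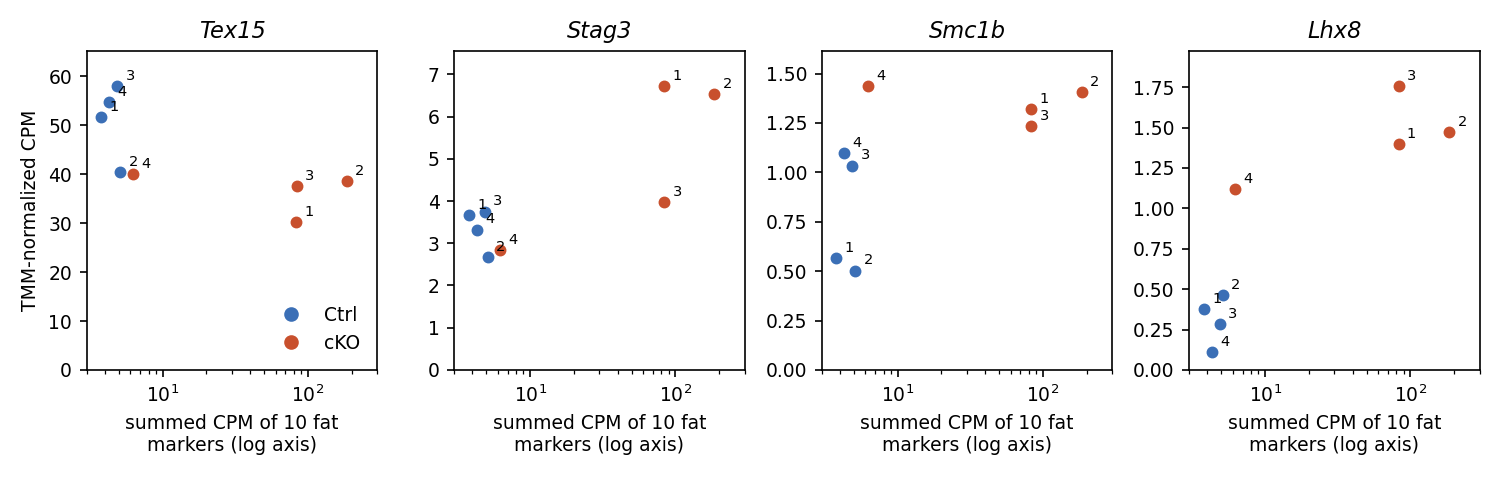
TMM-normalized CPM of *Tex15*, *Stag3*, *Smc1b* and *Lhx8* in each library against the summed CPM of 10 fat markers on a log axis, with replicate numbers beside the points. cKO replicate 4, at 6.23 CPM of fat markers, lies among the controls for *Stag3* and above them for *Smc1b* and *Lhx8*.

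*Sycp3*, the lateral element protein with 2 E-boxes in its promoter, was measurable in all libraries, with 188, 181, 135 and 224 counts in Ctrl and 133, 184, 170 and 193 counts in cKO (means of 5.97 ± 0.900 and 5.83 ± 0.767 CPM, SD, n = 4). Its log2 fold change was -0.035 (95% interval -0.35 to 0.28). Its exons share 660 bases with *Chpt1* on the opposite strand, and whether the counting used strand is not given in the sources used here, so the origin of these reads is uncertain. *Zcwpw1*, a histone reader of recombination hotspots, was at 8.90 to 13.3 CPM in Ctrl and 10.8 to 13.8 CPM in cKO (log2 fold change 0.06, SE 0.13), and shares 468 exonic bases with *Pilra* in the same way. *Piwil4* above shares 137 with *Gm10706*.

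*Sycp1*, the transverse filament of the synaptonemal complex, had an uneven pattern that did not follow genotype. It had 17, 50, 1 and 1 counts in Ctrl and 23, 33, 1 and 21 in cKO. 3 libraries, Ctrl replicates 3 and 4 and cKO replicate 3, had 1 count each, where the other 5 had at least 17. The log2 fold change was 0.18 with a standard error of 1.12, so the data bound it only between -2.41 and 2.77. *Sycp3* and *Smc1b*, which act with it in meiosis, did not share this pattern across the libraries.

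Of the germ cell RNA regulation and spermatogenesis group, *Brdt* and *Tex14* were tested. *Brdt*, the testis bromodomain protein, was at 11.5, 8.86, 9.92 and 10.2 CPM in Ctrl and 10.8, 12.2, 13.5 and 9.46 CPM in cKO (log2 fold change 0.18, SE 0.12, adjusted p = 0.425). *Tex14*, which forms intercellular bridges between germ cells, was at 1.07, 1.51, 1.32 and 1.13 CPM in Ctrl and 1.28, 0.937, 0.893 and 1.40 CPM in cKO (log2 fold change -0.15, SE 0.23, adjusted p = 0.741). The genotypes overlapped in both.

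**Figure D5:**
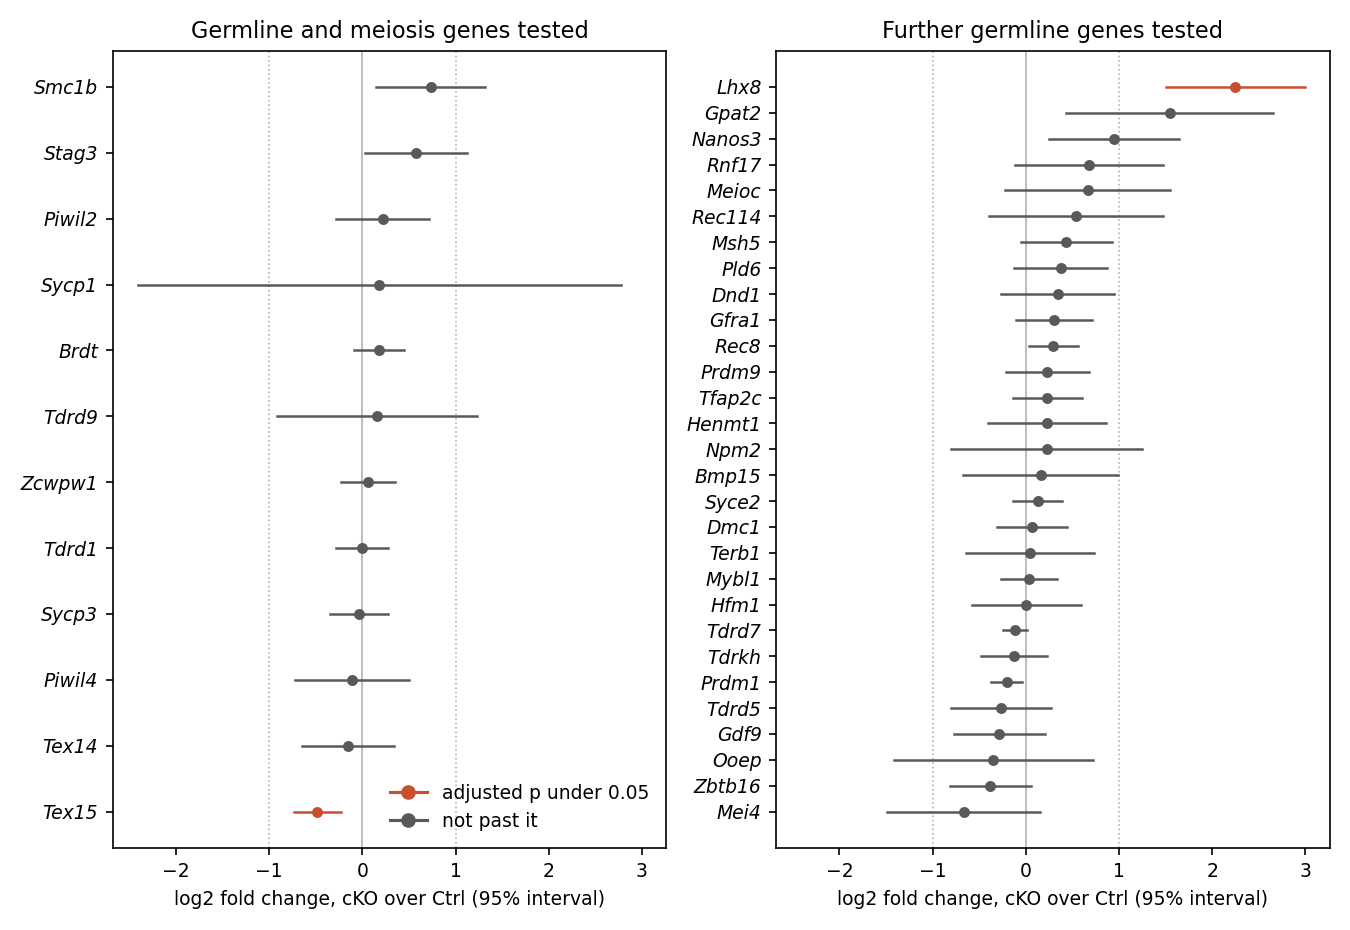
Log2 fold changes of cKO over Ctrl with 95% intervals for the 12 germline and meiosis genes tested (left) and the 29 further germline genes tested (right), with genes past an adjusted p of 0.05 in orange and dotted lines at 2-fold. *Tex15* at -0.48 and *Lhx8* at 2.25 are the 2 genes past it.

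Per kilobase of exon, the measurable genes were low to middling beside the rest of the uterus. *Sycp3* at 4.67 CPM per kb and *Tex15* at 4.56 CPM per kb lay at percentiles 45.6 and 45.1 of the 15989 tested genes with an exon length, *Brdt* and *Zcwpw1* at percentiles 30.0 and 29.7, *Tdrd1* at 22.1 and *Stag3* at 18.2. The other 6 lay between percentiles 0.331 and 9.61. Summed over all 34 genes, the level was 94.3, 80.9, 101 and 99.6 CPM in Ctrl and 78.3, 87.6, 85.0 and 83.7 CPM in cKO. This sum was mostly *Tex15*, with 54.4% of it in Ctrl and 43.8% in cKO. Without *Tex15*, the 11 other genes tested summed to 39.8 to 44.1 CPM in Ctrl. They summed to 47.1, 47.4 and 46.3 CPM in cKO replicates 1, 2 and 3, above every Ctrl library, and to 42.7 CPM in cKO replicate 4, within the Ctrl range. The part of fat or of ovarian RNA in this sum was not tested.

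A wider list of 70 germline genes gave 1 call among 29 tested, with 40 under the filter, where 5.34% of all genes tested were called (1.3% past 2-fold). The called gene was *Lhx8*, a LIM homeobox transcription factor of oocytes that also acts in forebrain and tooth development. It had 12, 12, 8 and 4 counts in Ctrl and 36, 44, 57 and 32 counts in cKO, or 0.379, 0.464, 0.285 and 0.110 CPM against 1.40, 1.47, 1.76 and 1.12 CPM. All cKO libraries were above all Ctrl libraries, including cKO replicate 4, which was low in fat markers. The log2 fold change was 2.25 (SE 0.34, edgeR adjusted p = 0.00231), and it was called under every alternative with at least 3 libraries of each genotype (adjusted p up to 0.0101). Its promoter held neither motif. *Gdf9* and *Bmp15*, growth factors secreted by oocytes, were at 1.61 ± 0.0757 and 0.315 ± 0.110 CPM in Ctrl and 1.32 ± 0.378 and 0.344 ± 0.122 CPM in cKO (SD, n = 4) and did not pass the test. *Nlrp5*, an oocyte gene under the filter, had 2, 1, 1 and 5 counts in Ctrl and 0, 1, 0 and 0 in cKO. Its CPM did not overlap between the genotypes, but 7 of the 8 libraries were under 3 counts.

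Of the 29 further genes tested, 21 had a log2 fold change above 0 and 8 below, with a median of 0.22 beside 0.00 over all genes tested (8350 above and 8308 below), and 5 had an unadjusted p under 0.05. The other further lists had no call: 0 of 10 tested for meiosis (9 above 0), 0 of 8 for the piRNA pathway and 0 of 6 for germ cell specification, while all 8 spermatid genes such as *Prm1* were under the filter. *Meiob*, a single-stranded DNA binding protein of meiotic recombination in the meiosis list, was under the filter with 21, 1, 30 and 19 counts in Ctrl and 2, 1, 2 and 3 in cKO. With no filter it was called lower (log2 fold change -3.00, adjusted p = 0.0266), the opposite direction to 9 of the 10 meiosis genes tested. *Gpat2*, a mitochondrial acyltransferase of the piRNA pathway, had 2, 3, 7 and 8 counts in Ctrl and 20, 20, 9 and 7 in cKO (log2 fold change 1.55, SE 0.51, adjusted p = 0.104). *Nanos3*, a germ cell survival factor, was at 0.757, 0.696, 0.535 and 0.357 CPM in Ctrl and 1.28, 1.27, 1.32 and 0.595 CPM in cKO (log2 fold change 0.94, SE 0.32, adjusted p = 0.111). *Meiob*, *Gpat2* and *Nanos3* were named after their values were seen. In *Gpat2* and *Nanos3*, cKO replicate 4 lay within the Ctrl range, and without it both were called (log2 fold changes of 1.76 and 1.15, adjusted p = 0.0447 and 0.0239). *Inha*, unlike *Foxl2*, was also above every control in cKO replicates 1, 2 and 3 but not in cKO replicate 4, and the part of fat or of ovarian RNA in these levels was not tested.

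The repressors of germline genes were expressed in every library and none was called, where 5.34% of all genes tested were called. All 9 PRC1.6 genes were tested, with log2 fold changes from -0.18 to 0.09, of which 8 were below 0 and 1 above. An unadjusted edgeR p under 0.05 was given to 2 of the 9, beside 3535 of all 16658 genes tested. *E2f6*, the E2F subunit, and *Mga*, the E-box subunit, were at -0.15 (SE 0.07, adjusted p = 0.247) and -0.14 (SE 0.07, adjusted p = 0.292). All 7 DNA methylation and H3K9 methylation genes were tested, with log2 fold changes from -0.08 to 0.11, among them the maintenance methyltransferase *Dnmt1* at 0.05 and its partner *Uhrf1* at 0.11. The other PRC2 genes, *Ezh1*, *Suz12* and *Eed*, were between -0.07 and 0.03.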

How the data were processed

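Whole uteri of 4 Ctrl and 4 cKO mice at PD10 were measured by RNA-seq from TruSeq stranded mRNA libraries. As deposited by the authors, each library is a list of raw read counts by Entrez gene, made from reads trimmed with Trimmomatic, mapped with HISAT2 on GRCm38 and assigned to genes with featureCounts. The counts were not normalized, and versions, annotation and strand setting are not given in the sources used here. Uncertain strand and overlapping or near-identical genes can move reads between genes. The authors' table of their edgeR comparison and their log2 CPM table were not used, except that the former paired symbols with Entrez identifiers.

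Genes over 0.2 CPM in at least 4 libraries (16658 of 27179) were tested with edgeR 4.0.16 in R 4.3.3, with TMM scaling, glmQLFit and glmQLFTest with robust = TRUE, a prior count of 0.125 for fold changes and Benjamini-Hochberg adjustment over all genes tested. Calls have an adjusted p under 0.05. The standard error is the size of the log2 fold change over the square root of the F score, and intervals are at 95%. Alternatives were RLE scaling, no filter, filterByExpr, DESeq2 1.42.0, limma-voom (limma 3.58.1), the replicate number as a block, and leaving out each library. Comparing cKO replicate 4 alone with the controls was added after seeing the data. It assumes that this library varies like the controls.

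The 34 genes, the further germline lists, the repressors and the marker lists (uterus, granulosa cells, oviduct, fat, skeletal muscle, mast cells, macrophages and lymphocytes) were chosen with earlier results of these data known. Every one of the 34 is named. Further germline genes, repressors and markers are named where called, as are up to 5 further genes whose CPM did not overlap between genotypes (*Lhx8* and, under the filter, *Nlrp5*) and the first 2 of each repressor and marker list. *Gpat2*, *Nanos3*, *Gdf9*, *Bmp15*, *Ooep*, *Inha*, *Amh*, *Krt8*, *Acta2*, *Vim*, *Kit*, *Meiob*, *Prm1*, the zona pellucida genes, *Kpna7*, *Fshr* and the other PRC2 genes were named after their values were seen. *Meiosin* was not analysed here. Exon lengths and overlaps come from GENCODE M21, and promoters from RefSeq, GRCm38.p6. Tested on simulated counts for 16658 genes, edgeR found 197 of the 200 genes given a change, 14 others were called falsely, and without any change there were 0 calls. The changed genes were drawn from the more abundant ones and were all given changes past 2-fold. Smaller changes, and changes in genes of low CPM, were therefore not tested in this way. The chi-square per gene between libraries was 7.44 to 30.0 over the 28 pairs, so no 2 libraries agreed within sampling noise.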

Additional observations from a re-analysis of the deposited data

Results flagged for a closer look

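3 values of single libraries stood apart from the other 3 of their group by Dixon's limit at 95% for groups of that size, out of 41 groups of 4 examined. The limit is made for continuous values, so its chance rate of about 1 in 20 does not hold for counts near 0. All 3 were in Ctrl replicate 3 and rest on 6 or 7 counts. *Piwil1* was at 0.250 CPM there, against 0.0946 to 0.116 CPM in the other Ctrl libraries. *Slc25a31* was also at 0.250 CPM and *Dppa3* at 0.214 CPM, and both had 0 counts in the other Ctrl libraries, where any count passes the limit. Their cause was not tested.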

How the results depend on the processing

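No setting called any of the 34 genes past 2-fold. Of 179 alternative values for the 12 genes tested, 150 kept their direction and their side of the threshold, 7 lost it (all *Tex15*), 1 gained it (*Stag3* without cKO replicate 4) and 21 changed sign, none of them called. Calls among the 34 ranged from 0 to 2 when single libraries were left out, and were 0 with cKO replicate 4 alone. Calls among further germline genes were 2 with no filter, where *Meiob* was added, 1 to 3 with single libraries left out, and 0 with cKO replicate 4 alone. Over all genes, calls were 1510 by DESeq2, 425 to 1783 with single libraries left out (425 without Ctrl replicate 1, 578 without Ctrl replicate 3, 484, 488 and 538 without cKO replicates 1, 2 and 3, and 1783 without cKO replicate 4), and 38 with cKO replicate 4 alone. Genes of the 34 with every cKO library above Ctrl were 1 to 2 with single libraries left out, and those below were 0 with scaling to library size only. The summed level of the 34 genes, 10.4 CPM lower in cKO on average, was 4.19 CPM higher without *Tex15*. The cause of these changes was not tested, beyond the fewer samples of such fits.

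With single libraries left out, the log2 fold change was between -0.26 and 1.76 for *Sycp1*, -0.12 and 0.047 for *Sycp3*, -0.057 and 0.067 for *Tdrd1*, -0.24 and 0.43 for *Tdrd9*, -0.30 and 0.071 for *Piwil4*, -0.038 and 0.14 for *Zcwpw1*, -0.0080 and 0.21 for *Uhrf1*, -0.18 and 0.15 for *Ovgp1*, -0.21 and 0.088 for *Acta1*, -0.25 and 0.064 for *Adgre1*, -0.062 and 0.16 for *Csf1r*, and -0.64 and 0.13 for *Cd3e*. With cKO replicate 4 alone it was 0.18 for *Sycp3*, -0.24 for *Stag3*, 0.17 for *Tex14*, 0.13 for *Tdrd1*, -0.19 for *Piwil2*, -0.10 for *Brdt*, 0.0099 for *Mga*, -2.25 for *Adipoq* and -0.26 for *Csf1r*, and with filterByExpr 0.0020 for *Tdrd1*.

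With the replicate number as a block (replicate block), 1240 genes were called over all genes, and of the 34 again *Tex15* (log2 fold change -0.48, adjusted p = 0.0155). *Foxj1* was called by the block alone (adjusted p = 0.0488). Same-numbered libraries had correlations of 0.0196, 0.110, -0.000260 and 0.190 in their deviations from the group means, so the numbers were not taken to pair them. A count of 0 allows up to 0.0818 to 0.119 CPM in a library, which limits what can be said of the 22 genes under the filter.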
